A study of Mus musculus
Rattus norvegicus and Mus musculus and Rattus norvegicus with 95 samples.

Results

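Somatic cells taken from the testis of a mouse chimaera and neurons taken from a mouse chimaera were compared cell by cell within the allodiploid line RM1-1. An allodiploid embryonic stem cell (AdESC) carries 1 haploid mouse genome and 1 haploid rat genome in the same nucleus. The 4 columns of single cells labelled as RM1-1 somatic testis and the 8 labelled as RM1-1 neuron were taken, 12 of the 87 single cells in the series. They are called T1 to T4 and N1 to N8 in column order, which carries no meaning beyond the name. A further 75 cells fill the 9 other single-cell samples, of which 5 served for comparison: undifferentiated RM1-1 AdESCs in G0/G1 (4 cells), RM1-1 embryoid bodies (EB, clumps in which stem cells differentiate, 5 cells), somatic testis of a rat chimaera of line RM2-1 (20 cells), lung of such a rat chimaera (4 cells) and fibroblasts of a mouse chimaera of line MR1-1 (10 cells).

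Values were FPKM, which divides fragments by transcript length and by library size. They covered 13926 genes held by both mouse and rat, and all differences below are between means of log2(FPKM + 1) over cells, testis-labelled minus neuron-labelled. The labels state no age, host strain or way of picking the cells, and they do not say whether the testis cells and the neuron-labelled cells came from 1 animal or from more. Each label is therefore 1 sample. The FPKM of a cell summed to 322166 to 402644, and 4431 to 5608 genes reached 1 FPKM in a cell; the read depth is unknown. Cells of 1 sample are not replicates, so no test was possible and no p-value is given; the SD over cells describes the cells, not the error between animals. Tissue label, animal and handling cannot be told apart in this design. Mouse and rat transcripts are joined in the values, so whether each cell carried both genomes was not checked here.

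Neural progenitors and radial glia are dividing cells of the developing nervous system that hold vimentin and nestin filaments, the fatty acid carrier Fabp7 and the factor Sox2, and that give rise to neurons and macroglia. Neurons switch on the microtubule proteins Dcx and Mapt and the vesicle proteins Syp and Syt1 as they mature. Somatic testis holds Sertoli cells, which nurse germ cells, Leydig cells, which make steroids, and contractile peritubular myoid cells with stroma around them.

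Set beside the other testis sample, the Sertoli, myoid and stromal lists stood lower in the testis-labelled cells. The level of none of these lists was particular to testis. The Leydig and germ cell lists did not part these cells from that sample. The cells are called testis-labelled throughout. Of 19 measured Sertoli genes 13 were listed at 0 in all 4 testis-labelled cells and 7 in all 20 RM2-1 testis cells, beside 39.1% and 28.7% of all genes. The mean level of that list ran from 0.70 to 1.19 log2(FPKM + 1) in T1 to T4 and from 1.20 to 2.18 in RM2-1 testis. In RM2-1 lung it ran from 1.17 to 1.80 and in MR1-1 fibroblasts from 0.59 to 1.74, so the level of this list is not particular to testis. For 12 Leydig genes the median cell stood at 1.10 and 1.16, with 4 genes at 1 FPKM or more in at least 50% of cells in each sample. The median cell of RM2-1 lung stood higher, at 1.68, so this list is not particular to testis either. Of 17 germ cell genes, 14 were at 0 in all 4 testis-labelled cells and 13 in all 20 RM2-1 testis cells. Wt1, a factor of Sertoli cells, was at 0 in all 4 cells, against a median of 1.83 and a highest value of 52.4 FPKM in the RM2-1 testis cells. Gata4, another gonadal factor, reached 0.047 FPKM in T1 and was 0 in T2, T3 and T4, with a median of 4.02 FPKM in RM2-1 testis. Both genes were thus at or near 0 in every RM1-1 testis-labelled cell. Nr5a1, the master factor of steroid-making cells, and Inhba, an inhibin and activin subunit, were at 0 in all 12 cells, while Inhba ran from 4.39 to 345 FPKM (median 134) in RM2-1 testis.

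Clu and Scarb1, of the Sertoli and Leydig lists, were present in both labels. Clu, a secreted chaperone that Sertoli cells and glia both make, stood at 102, 722, 147 and 176 FPKM in T1 to T4. In the neuron-labelled cells it ran from 0 to 445 FPKM with a median of 79.6, so the ranges overlapped. Scarb1, the receptor that takes up cholesterol from lipoprotein, stood at 22, 11.6, 62.7 and 33.6 FPKM, and at 1.08 to 113 FPKM (median 26) in the neuron-labelled cells. Star, which carries cholesterol into mitochondria for steroid synthesis, stood at 22.4 FPKM in T2 and 4.49 in T3, at 0 in T1 and T4, and at 0 in all 8 neuron-labelled cells. Ddx4, a germ cell RNA helicase, was at 17.7 FPKM in T4 and at 0 in the 11 other cells.

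Myoid and stromal genes set the RM1-1 testis label apart from the RM2-1 testis label. The mean level of 12 measured smooth muscle, myoid and pericyte genes ran from 1.51 to 2.04 log2(FPKM + 1) in T1 to T4, from 1.01 to 1.99 in the neuron-labelled cells and from 4.67 to 6.56 in the 20 RM2-1 testis cells. For 18 fibroblast and meninges genes the ranges were 0.58 to 1.09, 0.27 to 0.61 and 3.00 to 5.00. In both lists every RM1-1 cell therefore lay below every RM2-1 testis cell. A high level was not particular to testis, as RM2-1 lung ran from 2.05 to 6.20 and from 1.23 to 3.89. MR1-1 fibroblasts ran from 0.73 to 3.10 and from 0.06 to 4.73, across the ranges of T1 to T4. Levels as low as those of T1 to T4 thus also occurred in cells labelled fibroblast. Tagln, an actin-binding protein of smooth muscle, ran from 2.24 to 94.6 FPKM in the testis-labelled cells and from 1553 to 6669 in RM2-1 testis. Bgn, a matrix proteoglycan, was at 0 in T1 to T4 and ran from 159 to 916 FPKM in RM2-1 testis. Col1a1, the main chain of type I collagen, reached 0.043 FPKM at most in the testis-labelled cells and ran from 60.3 to 289 in RM2-1 testis. Line, host species and animal differ between these 2 testis labels, and their part in the difference was not tested.

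Markers of neurons were present in some of the 8 cells labelled neuron and absent from others, so these are called neuron-labelled. Tubb3, the neuronal tubulin, stood at 502, 98.6, 330 and 417 FPKM in N1, N3, N4 and N5 and under 1 FPKM in N2, N6, N7 and N8. Dcx, which bundles microtubules in young neurons, stood at 39.1, 7.12 and 4.21 FPKM in N1, N4 and N5 and at 0.02 or less in the 5 other neuron-labelled cells. Mapt, the microtubule protein tau, stood at 46.9, 75.2 and 70.2 FPKM in the same 3 cells and at 1.86 or less in the others. N1, N4 and N5 thus held Tubb3, Dcx and Mapt together. They were not alike in Syp, where N1 stood apart at 6.06 log2(FPKM + 1). In the 5 other neuron-labelled cells, Dcx, Syt1 and Syp were at or near 0, with 0.11 FPKM of Syt1 in N8 as the highest value. The astrocyte list had its highest mean levels in N2 and N6, at 3.48 and 3.47 log2(FPKM + 1), against 1.40 to 2.74 in the 6 others. Rbfox3, found in nuclei of most mature neurons, reached 0.475 FPKM in N4 and was 0 in the 11 other cells. Of 14 neurotransmission genes 7 were at 0 in all 12 cells, and the share of all genes at 0 in all 12 was not counted. In the 4 testis-labelled cells 10 of the 14 were at 0, beside 39.1% of all genes. At 0 in all cells of the sample were 12 in RM2-1 testis and in RM1-1 AdESCs. The number was 11 in RM1-1 EB and in RM2-1 lung, and 9 in MR1-1 fibroblasts. These zeros were thus not particular to the RM1-1 testis-labelled and neuron-labelled cells.

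Tubb3 was present in every testis-labelled cell, at 63.5, 168, 21.3 and 25.4 FPKM. Its mean was 5.65 ± 1.35 (SD over 4 cells) against 4.29 ± 4.22 (SD over 8 cells) in the neuron-labelled cells, so the difference of 1.37 was within the spread of the neuron-labelled cells. Stmn2, a growth cone protein, stood at 150 FPKM in T2 and 103 in T4, and at 0.465 and 0 in T1 and T3. Mapt, Dcx, Syt1 and Syp stayed at or under 0.099 FPKM in all 4. Elavl4, an RNA-binding protein of neurons, stood at 15.4, 22.5, 0 and 2.6 FPKM, and at 0.515 to 71.4 FPKM (median 10.9) in the neuron-labelled cells. The mean level of the 20 measured neuron genes was 1.11 to 2.56 log2(FPKM + 1) in T1 to T4. It was 3.86, 3.48 and 4.19 in N1, N4 and N5 and 1.04 to 2.09 in the other neuron-labelled cells, inside or near the range of T1 to T4. Over these 20 genes, 17 of which passed a mean of 1 FPKM, the median difference was -0.73. Mapt alone, at -2.39, was past a difference of 2, which 3.27% of the 7671 genes with a mean of 1 FPKM or more passed towards the testis-labelled cells and 1.76% towards the neuron-labelled cells. Mapt was at -1.94, -1.85 and -1.86 without N1, N4 and N5.

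**Figure D1:**
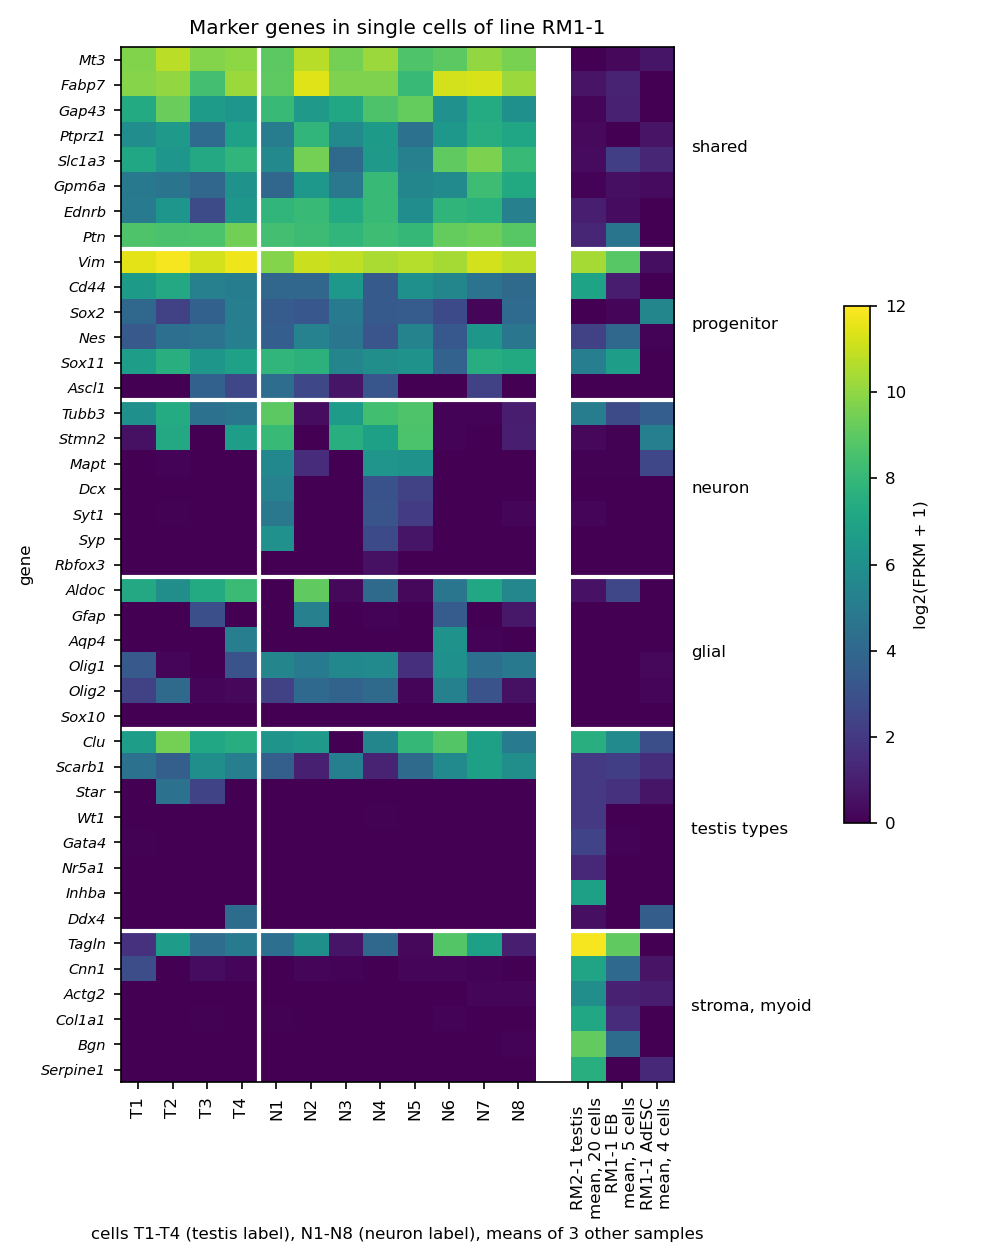
Colour gives log2(FPKM + 1) of marker genes (rows) in each RM1-1 cell (columns T1 to T4 and N1 to N8) and as the mean over cells of RM2-1 testis, RM1-1 EB and RM1-1 AdESC (3 columns on the right). Shared genes and most progenitor genes are bright in both labels. Dcx, Syt1 and Syp appear only among N1, N4 and N5, with Syp highest in N1. Bgn and Col1a1 are bright in the RM2-1 testis mean and dark in the 12 RM1-1 cells.

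Both labels were more alike than either was to any of the 9 other single-cell samples. Across all 13926 genes the means of the testis-labelled cells and the neuron-labelled cells had a Pearson's r of 0.942. The testis-labelled mean had an r of 0.896 with RM1-1 EB, 0.879 with RM2-1 testis, 0.866 with MR1-1 fibroblasts, 0.837 with RM1-1 AdESCs and 0.835 with RM2-1 lung. These values are over genes, which are not independent, and over means of 4 to 20 cells, and the samples share 1 deposited table. By this measure a sample with the same tissue label but another line and host was less like the RM1-1 testis-labelled cells than the RM1-1 neuron-labelled cells were.

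Pairs of single cells were also most alike within the 12, though AdESC cells came before RM2-1 testis cells here. Pairs of testis-labelled cells had r from 0.725 to 0.805 (median 0.762, 6 pairs), pairs of neuron-labelled cells from 0.698 to 0.795 (median 0.745, 28 pairs), and mixed pairs from 0.690 to 0.805 (median 0.748, 32 pairs). Mixed pairs thus spread over nearly the same range as pairs within a label. The testis-labelled cells had a median r of 0.737 with RM1-1 EB cells, 0.734 with RM1-1 AdESC cells and 0.716 with RM2-1 testis cells. For all 12 cells the most alike of the 86 other cells was one of the 12. For 4 of the 8 neuron-labelled cells it was a testis-labelled cell, and for 1 testis-labelled cell, T2, it was a neuron-labelled cell. T2 had the lowest median r to the 11 other cells, 0.725 (0.727 to 0.783 for the others), the fewest genes at 1 FPKM or more among the testis-labelled cells (4570, against 5116 to 5608 in T1, T3 and T4) and low cell cycle genes.

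**Figure D2:**
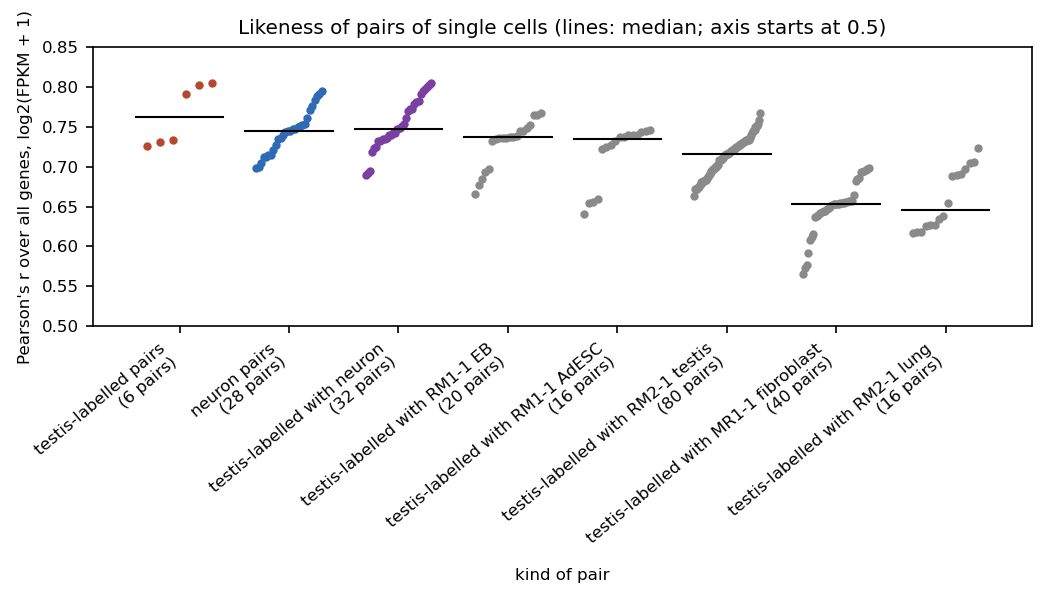
Each point is Pearson's r over all genes between 2 single cells, on log2(FPKM + 1), by kind of pair; lines are medians and the axis starts at 0.5. The median of 0.748 for mixed pairs lies close to the 0.745 of neuron pairs and above the 0.716 of testis-labelled cells with RM2-1 testis cells.

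Some genes were high in both labels and low in the 5 other samples. A gene was counted as shared when both means were at least 3 and each was at least 2 above the highest mean of those 5 samples. The count was 43 genes, 0.309% of 13926, and 8 of them (18.6%) stood in the neural, glial and progenitor lists, which hold 94 of all genes (0.675%). The other genes of the 43 stood in none of those lists. Against all 9 other single-cell samples 38 of the 43 kept the margin. The rule itself sets these levels, so they are a description. None of the 5 samples is labelled neural, and the 0.675% is a share of all genes, with those at 0 in both labels among them. The shares of 18.6% and 0.675% are therefore a description too, and enrichment was not tested.

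Mt3, the metal-binding protein of brain, had the largest margin. It stood at 835, 1721, 881 and 992 FPKM in T1 to T4 and at 418 to 1680 FPKM (median 737) in the neuron-labelled cells, and at 0 in all 20 RM2-1 testis cells. The gene lies at chr8:94152607-94154146 (GRCm38, GENCODE M21). Its neighbours Mt1 and Mt2 were also present in most cells of both labels, at 32.4 to 208 FPKM for Mt1 in T1 to T4, but both were higher still in RM1-1 AdESCs, at means of 9.18 and 9.86 log2(FPKM + 1). Mt3 had a mean of 0.67 there.

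Fabp7, the fatty acid carrier of radial glia (chr10:57784881-57788450), stood at 915, 1062, 345 and 1160 FPKM in the testis-labelled cells and at 275 to 2737 FPKM (median 1004) in the neuron-labelled cells. RM2-1 testis had a median of 0. Slc1a3, a glutamate transporter of radial glia and astrocytes, stood at 147, 79.2, 149 and 241 FPKM, and in the neuron-labelled cells ran from 16.7 to 782 (median 186). The neuron-labelled cells spread more widely in Slc1a3 than the testis-labelled cells, with an SD of 2.13 against 0.65, and N3 (16.7) and N5 (36.5) were the lowest. Ptprz1, a receptor phosphatase of glial progenitors, stood at 57.4, 88.7, 17.2 and 117 FPKM, and at 22 to 235 (median 89.1) in the neuron-labelled cells. Its ligand Ptn stood at 409, 379, 386 and 695 FPKM against 241 to 644 (median 325). The ligand and its receptor were thus present in all 12 cells.

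Gap43, Fez1 and Gpm6a were also among the shared genes. Gap43, a growth cone protein, stood at 160, 604, 99.4 and 77.7 FPKM in T1 to T4 and at 65 to 582 (median 154) in the neuron-labelled cells, with means of 7.38 and 7.39. Fez1, an adaptor of kinesin transport, stood at 113, 331, 170 and 117 FPKM, and at 42.1 to 362 (median 121). Gpm6a, a membrane glycoprotein of neurons, stood at 27.8, 23.7, 14.3 and 67.9 FPKM and was higher on average in the neuron-labelled cells, at 14.6 to 309 (median 67.5). All these ranges overlapped. Among the 15 shared genes with the largest margins, Rtn1, a reticulon of the neuronal endoplasmic reticulum, and Ednrb, the endothelin receptor of neural and crest progenitors, were past a difference of 2. Rtn1 stood at 7.31, 77.2, 3.25 and 79.7 FPKM against 5.41 to 367 (median 114), a difference of -2.07. Ednrb stood at 30.8, 78.8, 5.6 and 80.6 FPKM against 36.5 to 280 (median 214), a difference of -2.16. Both were therefore common to the labels and yet lower in the testis-labelled cells by the size used, with overlapping ranges. Without T3 the differences were -1.29 for Rtn1 and -1.37 for Ednrb, and Rtn1 was also short of 2 without T1, N1, N4 or N5.

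The 5 remaining of these 15 genes, Zcchc12, Olfm2, Csdc2, Gchfr and Igfbp3, had differences between -0.70 and 0.61. Igfbp3, which binds insulin-like growth factors, had means of 4.80 and 4.78. Gchfr, which regulates the first enzyme of tetrahydrobiopterin synthesis, stood at 14 FPKM or more in every one of the 12 cells. Further down the margin stood Ncan, the brain proteoglycan neurocan, with means of 3.85 and 3.63 and values of 0 in all RM2-1 testis cells, and Fgfr3, a receptor of glial progenitors, with 5.09 and 3.59. Ntrk2, the receptor of brain-derived neurotrophic factor, had means of 3.86 and 3.73 and stood at 1 FPKM or more in all 12 cells.

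The 3 genes given as markers for this comparison were Vim, Cd44 and Sox2. Vim, an intermediate filament of progenitors and of mesenchyme (chr2:13573927-13582826), stood at 2906, 3609, 2351 and 3301 FPKM in T1 to T4. In the neuron-labelled cells it ran from 881 to 2339 FPKM with a median of 1708. The groups did not overlap, but the lowest testis-labelled cell and the highest neuron-labelled cell were 2351 and 2339 FPKM. The difference of the means was 0.90, from 11.55 ± 0.27 and 10.65 ± 0.44, and RM2-1 testis ran from 760 to 2918 FPKM, across both labels.

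Cd44, a hyaluronan receptor of glial progenitors and mesenchyme (chr2:102811141-102901665), stood at 91.2, 149, 35.9 and 32.9 FPKM in the testis-labelled cells. The neuron-labelled cells ran from 9.47 to 82.2 FPKM with a median of 19.7, where N3 and N5 were highest, so the ranges overlapped at a difference of 1.27. Cd44 was higher still in RM2-1 testis, at 65.7 to 241 FPKM, and at 0 on average in RM1-1 AdESCs. Sox2, the factor that keeps neural progenitors (chr3:34650405-34652461), stood at 14.9, 4.04, 12.3 and 34.1 FPKM. In the neuron-labelled cells it ran from 0.12 to 28.5 FPKM with a median of 9.89, a difference of 0.59 within the spread of either label. Sox2 was 0 in all 20 RM2-1 testis cells, while RM1-1 AdESCs, where it is a pluripotency factor, had a mean of 5.52.

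Other progenitor genes were also present in both labels. Of 18 measured members 14 passed the filter; the median difference over the 18 was 0.38, beside 0.09 over the 7671 genes past the filter and 0 over all genes. None was past a difference of 2, and Vim and Hes1 were the members whose cells did not overlap, both higher in the testis-labelled cells, as were 0.222% of genes past the filter. The mean level of the list was 3.80 to 4.36 log2(FPKM + 1) in T1 to T4 and 3.25 to 4.51 in the neuron-labelled cells, above the highest RM2-1 testis cell at 2.36 and the highest RM1-1 EB cell at 2.40. At 1 FPKM or more in at least 50% of cells stood 14 of the 18 in the testis-labelled cells, 12 in the neuron-labelled cells and 7 in RM2-1 testis, beside 42.3%, 38.3% and 38% of all genes. Nes, the filament nestin, stood at 9.07, 19.9, 22.5 and 35.8 FPKM against 7.83 to 81.7 (median 25.5). Sox11, a factor of newborn neurons, stood at 102, 190, 79.5 and 118 FPKM against 12.6 to 236 (median 111), and Ccnd2, a G1 cyclin of neural progenitors, at 427, 1308, 601 and 462 FPKM against 133 to 692 (median 430). Pax6, a factor of forebrain radial glia, stood at 6.98, 0, 18.5 and 0.455 FPKM and did not reach 0.5 FPKM in any neuron-labelled cell.

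Regional factors were patchy in both labels. Otx2, of forebrain and midbrain, stood at 15.3 FPKM in T1 and 41.2 in T4, and at 0 in T2 and T3. Lhx2, a cortical factor, stood at 6.99, 0, 12.8 and 1.62 FPKM and at 1 FPKM or more in N1 and N8 only. T2 held neither Otx2 nor Lhx2. Of 23 measured Hox genes, which mark hindbrain, spinal cord and trunk, 22 were at 0 in all 12 cells. In all cells of the sample, 20 were at 0 in MR1-1 fibroblasts, 18 in RM1-1 AdESCs and 17 in RM2-1 lung. The numbers were 11 in RM2-1 testis and 10 in RM1-1 EB. Near absence of Hox genes was thus not particular to the 12 cells. The share of all genes at 0 in the 4 testis-labelled cells was 39.1%, and that over all 12 was not counted.

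Astrocyte genes were present in cells of both labels. Over 15 measured members the median difference was -0.06, and Aldoc alone was past 2. Aldoc, the brain aldolase of astrocytes and radial glia, stood at 149, 60.1, 161 and 288 FPKM in T1 to T4. Among the neuron-labelled cells it stood at 529 FPKM in N2, at 0 in N1 and at 0.195 and 0.196 in N3 and N5, so N1, N3 and N5 were near 0 and the ranges overlapped. The difference was 3.27, with an SD of 3.43 over the neuron-labelled cells. Gfap, the astrocyte filament, stood at 6.63 FPKM in T3 and at 36.9 and 10.2 in N2 and N6, under 1 FPKM elsewhere. Aqp4, the water channel of astrocyte endfeet, was at 34.1 FPKM in T4 and 71.8 in N6 and below 0.1 in the 10 other cells.

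Among oligodendrocyte lineage genes, Olig1 alone of 16 measured members was past a difference of 2. Olig1, a factor of oligodendrocyte precursors and some neural progenitors, stood at 9.21, 0.169, 0 and 7.31 FPKM in T1 to T4 and at 2.19 to 65 FPKM (median 36.4) in the neuron-labelled cells, a difference of -3.17. N5 was the 1 neuron-labelled cell inside the range of the testis-labelled cells. Olig2, its close relative, stood at 4.04, 16.7, 0.138 and 0.205 FPKM against 0.118 to 37.6 (median 10.3), a difference of -1.20 with overlap. Both were 0 in every RM2-1 testis cell. Sox10, which drives the later lineage, was 0 in all 12 cells. Of 16 members of the list 7 were at 0 in all 12 cells, for which the share of all genes was not counted. In the 4 testis-labelled cells 11 of the 16 were at 0, beside 39.1% of all genes. At 0 in all cells of the sample were 8 in RM2-1 testis and 12 in RM2-1 lung. The number was 10 in RM1-1 EB, and 9 in RM1-1 AdESCs and in MR1-1 fibroblasts. These zeros were thus not particular to the RM1-1 testis-labelled and neuron-labelled cells.

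Few genes kept the cells of both labels apart. Of 7671 genes past the filter, 251 (3.27%) had a mean more than 2 higher in the testis-labelled cells and 135 (1.76%) in the neuron-labelled cells, which together made 5.032%. This split rested on how cells were averaged. With log2 of the mean FPKM in place of the mean of log2 values, 386 genes were higher in the testis-labelled cells and 609 in the neuron-labelled cells, so 38.8% of the genes past 2 were higher in the testis-labelled cells, against 251 of 386 before. Leaving T2 out gave 425 genes higher in the testis-labelled cells, and leaving out T1 or T4 gave 231 or 226 higher in the neuron-labelled cells. The median SD over cells was 1.38 for the testis-labelled cells and 1.58 for the neuron-labelled cells, so single genes past 2 often rested on a few cells.

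A stricter count took genes whose 4 testis-labelled cells all lay above or all below the 8 neuron-labelled cells. It held 17 genes higher in the testis-labelled cells (0.222%) and 5 higher in the neuron-labelled cells (0.0652%), of which 11 and 1 were also past a difference of 2. Without 1 cell the counts were 22 to 71 (71 without T2) and 8 to 21 (21 without T3). The genes were picked for this pattern, so their values are a description.

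**Figure D3:**
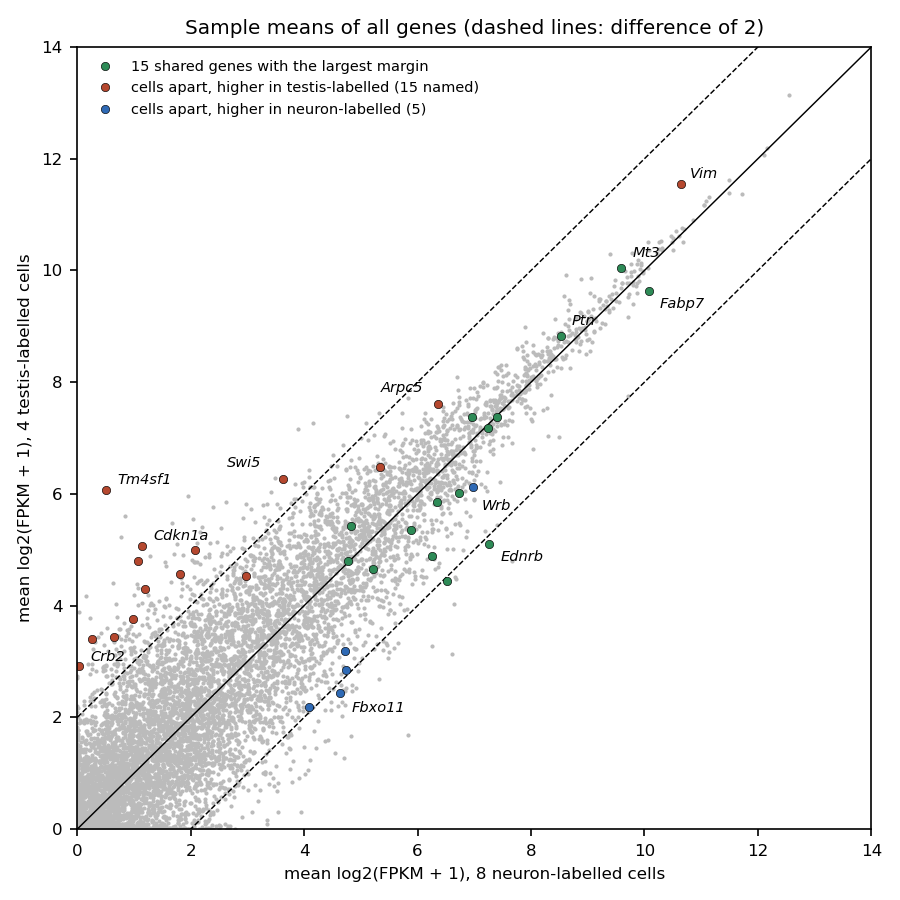
Each point is a gene, placed by its mean log2(FPKM + 1) over the 8 neuron-labelled cells (horizontal) and the 4 testis-labelled cells (vertical), with the line of equality and dashed lines at a difference of 2. Mt3, Fabp7 and Ptn lie near equality at high level, and Tm4sf1, at 6.07 against 0.51, is the farthest above it.

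Tm4sf1, a cell surface protein of the tetraspanin-like L6 family (chr3:57285611-57301988), stood at 42.7, 64.9, 175 and 39.6 FPKM in T1 to T4. The neuron-labelled cells ran from 0 to 3.64 FPKM with a median of 0.0816, and N3 and N8 were the ones above 1. The means were 6.07 ± 0.97 and 0.51 ± 0.84, a difference of 5.56, the largest of all genes past the filter. Tm4sf1 was as high in RM2-1 testis, at a mean of 6.19, and at 0.00 in RM1-1 AdESCs and 0.02 in RM1-1 EB.

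Cdkn1a, the p21 inhibitor of cyclin-dependent kinases (chr17:29090976-29100727), stood at 37.2, 27, 37.1 and 30.6 FPKM in the testis-labelled cells. The neuron-labelled cells ran from 0 to 8.6 FPKM with a median of 0.681. The testis-labelled cells were thus close together, at 5.07 ± 0.22, and the neuron-labelled cells spread at 1.15 ± 1.40, a difference of 3.93. RM2-1 testis and RM1-1 EB were both as high, with means of 5.25 and 5.82. Col18a1, a basement membrane collagen, stood at 25.5, 44.4, 20.5 and 22.1 FPKM against 0 to 13.7 (median 0.065), a difference of 3.73, and was low in RM2-1 testis at a mean of 0.38. Of these 3 genes, 2 were thus also high in the other testis sample and Col18a1 was not.

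Further genes were high in T1 to T4 and low in the neuron-labelled cells. Crb2, an apical polarity protein of neuroepithelium, stood at 18.9, 7.6, 0.494 and 11.5 FPKM, and at 0 in 6 neuron-labelled cells with 0.177 FPKM in N8 as the highest. Its difference was 2.88, and its mean was 0.01 in RM2-1 testis. Hes1, a Notch target that holds progenitors undifferentiated, stood at 18.5, 35.9, 20 and 18.3 FPKM against 0.518 to 18.2 (median 8.28), a difference of 1.56. T4 and N6 nearly touched, at 18.3 and 18.2 FPKM. Sirt6, a nuclear deacylase, stood at 7.54, 78.3, 4.61 and 2.24 FPKM against 0 to 0.64, a difference of 3.15 to which T2 gave the most.

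Other genes of this kind included Fndc3a, Gipc1, Lin54, Osbpl2, Nus1 and Swi5, with differences from 2.64 to 3.09, and Arpc5, Rab11a and Tpm4, with differences from 0.77 to 1.27. Gipc1, a PDZ adaptor of membrane traffic, stood at 51.8, 24.7, 28.6 and 25 FPKM against 0 to 21.5 (median 2.79). Arpc5, a subunit of the Arp2/3 complex that branches actin, stood at 235, 184, 155 and 217 FPKM against 28.1 to 148 (median 97). Arpc5, Rab11a and Tpm4 stood at 10.4 FPKM or more in every neuron-labelled cell, so for these the groups differed in level, not in presence.

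The 5 genes higher in every neuron-labelled cell were Fbxo11, Ahi1, Laptm4b, Tnrc6a and Wrb. Fbxo11, a substrate receptor of a ubiquitin ligase (chr17:87990859-88065291), stood at 4.78, 4.11, 6.84 and 2.8 FPKM in T1 to T4 and at 8.82 to 45.6 (median 28.6) in the neuron-labelled cells, a difference of -2.19. Ahi1, a protein of the ciliary transition zone, stood at 7.12, 6.79, 2.58 and 0.905 FPKM against 9.45 to 27.9 (median 16.1), a difference of -1.90. Tnrc6a, a scaffold of microRNA silencing, stood at 7.34, 7.21, 7.18 and 11.3 FPKM against 12.6 to 43.4 (median 26.5). None of these 5 was at 0 in any of the 12 cells, and none stood in the neural lists.

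**Figure D4:**
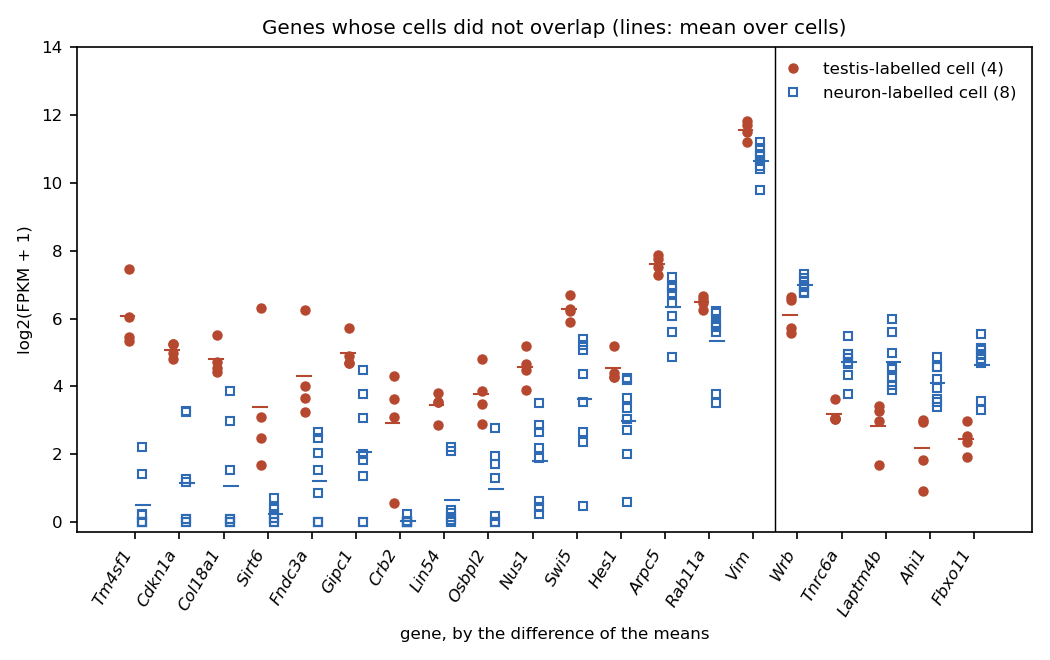
Points are log2(FPKM + 1) in the 4 testis-labelled cells (filled circles) and the 8 neuron-labelled cells (open squares) for 15 genes higher in every testis-labelled cell and 5 higher in every neuron-labelled cell; short lines are means over cells. Tm4sf1 and Cdkn1a leave a wide gap, while Hes1, Rab11a and Vim nearly touch.

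Mesenchymal surface and filament genes were, by their median, higher in the testis-labelled cells. All 16 measured members passed the filter, 3 were past 2 higher in the testis-labelled cells and none in the neuron-labelled cells, beside 3.27% and 1.76% of all genes past the filter, and the median difference was 0.97, beside 0.09 over genes past the filter. Emp1, an epithelial membrane protein, stood at 43.5, 70.9, 11.8 and 33.5 FPKM against 0 to 43.2 (median 0.783), with N3 at 43.2 and N5 at 24.4 FPKM. S100a6, a calcium-binding protein, stood at 95.2, 0.296, 126 and 15 FPKM, with 258 in N5 and 17.6 in N3. The large scaffold Ahnak stood at 2.36, 41.4, 5.88 and 2.71 FPKM against 0.018 to 4.99 (median 0.338). In all 3 genes N3 and N5 were the highest neuron-labelled cells, and the ranges overlapped. Without T2 the difference of Ahnak was 1.33, not 2.14, and that of S100a6 was 4.03, not 2.66. Without T1 or T3, S100a6 was at 1.96 or 1.83. The mean level of the list was 5.78 to 7.31 log2(FPKM + 1) in T1 to T4, 3.65 to 7.41 in the neuron-labelled cells and 8.08 to 9.03 in RM2-1 testis.

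Fn1, the matrix protein fibronectin, stood at 78, 115, 77.4 and 24.4 FPKM in T1 to T4 and at 0.275 to 41.3 (median 14.6) in the neuron-labelled cells, a difference of 2.62. S100a4, of the same S100 family, stood at 9.39, 0.537, 35.5 and 0 FPKM and did not reach 1 FPKM in any neuron-labelled cell, a difference of 2.18 that was 1.21 without T3 and 1.82 without T1. These 2 were the members past 2 of the 18 measured fibroblast and meninges genes, of which 7 passed the filter. Collagens of fibroblasts did not go with them: Col1a1 was near 0, as given above, and Col3a1 stayed at or under 0.759 FPKM in all 12 cells.

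**Figure D5:**
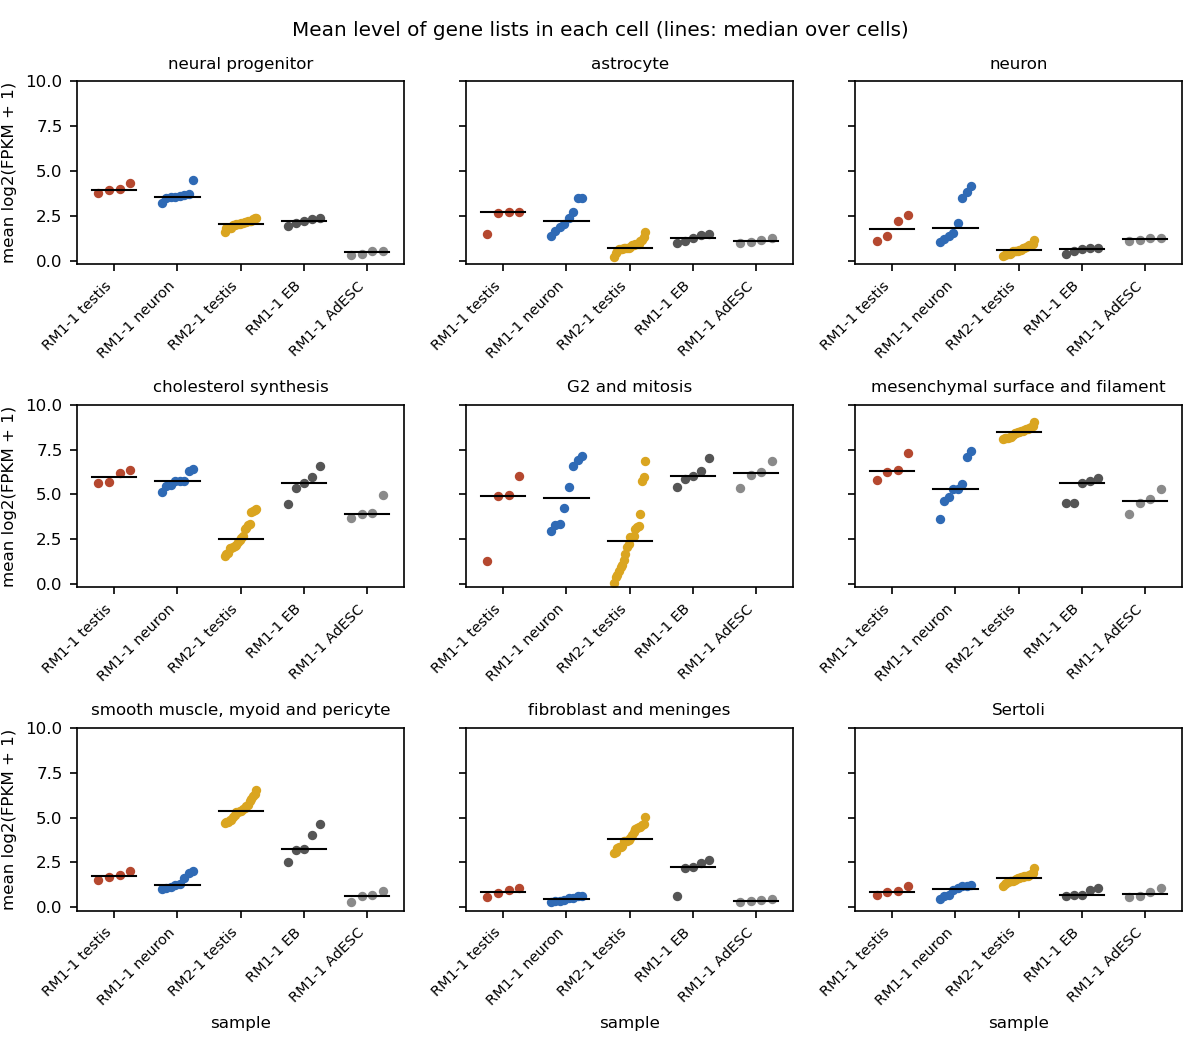
Each point is the mean log2(FPKM + 1) of 1 gene list in 1 cell, for 9 lists and 5 samples, with the median over cells as a line. Progenitor levels of the RM1-1 testis-labelled cells (3.80 to 4.36) and neuron-labelled cells (3.25 to 4.51) lie above the 20 RM2-1 testis cells, and the smooth muscle and fibroblast lists show the opposite order.

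Of the heat shock and integrated stress list, Ddit3 alone was past a difference of 2. Ddit3, a factor of the unfolded protein and integrated stress responses, stood at 70.2, 111, 78.8 and 7.73 FPKM in T1 to T4. In the neuron-labelled cells it stood at 81.8 FPKM in N1 and 0.239 in N2, and at 0 in the 6 others, a difference of 4.77. Its regulator Atf4 did not differ beyond its spread, at 74.5 to 298 FPKM against 32.5 to 330, and Asns, an amino acid synthetase of the same response, had a difference of 0.90. Over 11 measured genes of the list the median difference was 0.03. Isg15, an interferon-induced ubiquitin-like protein, stood at 0, 69.4, 36.5 and 16.7 FPKM and at 0.194 or less in the neuron-labelled cells. Ifitm2, of the interferon list as Isg15 is, was lower by 2.99 on average in the testis-labelled cells, where T2 and T3 stood at 0.546 and 0.266 FPKM.

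Genes of the Notch and BMP lists had median differences above that of all genes past the filter. Nrarp, a Notch target that feeds back on the pathway, stood at 1.47, 4.78, 4.15 and 13 FPKM against 0 to 3.33, a difference of 2.09 (1.65 without T4), and was 0 in all RM2-1 testis cells. The ligand Jag1 stood at 28.7, 25.7, 37.9 and 13.5 FPKM against 3.74 to 18.1 (median 9.17), a difference of 1.42. Over 9 measured Notch genes, 5 of which passed the filter, the median difference was 0.78, and Nrarp alone was past 2. The BMP target Id2 stood at 371, 332, 535 and 380 FPKM against 84.4 to 660 (median 188), and Cyr61, a matricellular target of TGF-beta and YAP, at 93.3, 102, 128 and 152 FPKM against 1.71 to 209 (median 33.4), a difference of 2.19 that was 1.73 to 1.94 without N1, N5 or N7. The 10 measured genes of that list had a median difference of 0.78.

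Cell cycle genes were low in T2 and higher in every other cell. The mean level of 16 G2 and mitosis genes was 4.96, 1.28, 6.03 and 4.88 log2(FPKM + 1) in T1 to T4 and 2.93 to 7.15 in the neuron-labelled cells; that of 16 S phase genes was 5.11, 2.06, 5.18 and 5.81 against 3.00 to 5.87. T2 thus lay below every other cell in both lists. Pcna, the replication clamp, stood at 409, 1.85, 441 and 575 FPKM against 151 to 643. Ccnb2, a mitotic cyclin, was past 2 in favour of the neuron-labelled cells, at 118, 0.508, 18.4 and 174 FPKM against 120 to 337 (median 215), a difference of -2.85 that was -1.45 without T2. Mki67, the proliferation antigen, stood at 5.8 FPKM or more in all 8 neuron-labelled cells and at 0.14 in T2. Cells with the neuron label and with Dcx were no exception, with 11.9, 48.7 and 6 FPKM of Mki67 in N1, N4 and N5.

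Cholesterol synthesis was high and alike in both labels. Over 14 measured genes the median difference was 0.18 and none was past 2. The mean level was 5.61 to 6.36 log2(FPKM + 1) in T1 to T4 and 5.14 to 6.43 in the neuron-labelled cells, against 1.58 to 4.20 in RM2-1 testis and 4.48 to 6.58 in RM1-1 EB. Hmgcs1, the synthase ahead of the rate-limiting step, stood at 365, 603, 600 and 603 FPKM against 370 to 1075 (median 583). RM2-1 testis had at most 121 FPKM. Lss, which closes the sterol ring, was higher in the testis-labelled cells by 1.87, at 9.74, 34.4, 18.5 and 49.8 FPKM against 1.4 to 12.8 (median 8.72).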

How the data were processed

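RNA of single cells was extracted with Trizol and made into TruSeq libraries, per the labels' protocols. The deposited values were FPKM per gene and cell; the unit is inferred from Cufflinks 2.1.1, listed with TopHat2 2.0.10, FastQC 0.10.1 and the builds mm10 and rn5 per the submitters' processing notes. How the authors joined mouse and rat values is not given in the sources used here. Columns were matched to groups by their names, which carry no cell numbers. Means of log2(FPKM + 1), with a pseudocount of 1, were compared; a gene was counted if its 12 cells averaged 1 FPKM or more and the means differed by over 2. With 1 sample per group nothing was tested, no doublet call was made, and p-values are not given. Likeness is Pearson's r over all genes. Coordinates are from GENCODE M21 (GRCm38); Tpm4, Ddit3 and Cyr61 had none there. The relative depth of a cell, from the spacing of low values, could be read from few genes and is not used.

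Genes were named by a rule: Vim, Cd44 and Sox2, the 15 shared genes with the largest margin, up to 15 genes without overlap in each direction, and up to 4 genes per list by level or by difference. Syp, Wt1, Nr5a1, Inhba, Bgn, Col1a1, Rbfox3, Stmn2, Elavl4, Ntrk2, Nes, Gfap, Sox10, Tpm4 and Mki67 fall outside it and were chosen after their values were seen. The cells compared and the gene lists were chosen with earlier results of these data known. The scripts were tested on simulated data with high levels, less spread over cells than observed and differences well past the threshold. That checks the code and does not measure how reliable the calls are here. Python 3.11.15, numpy 2.4.6, pandas 2.3.3 and matplotlib 3.10.9 were used. The table of 8 bulk libraries was not used. Some genes that the rule or the counts take in are not reported here.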

Additional observations from a re-analysis of the deposited data

Results flagged for a closer look

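Dixon's gap test at the 95% level was run on the log2(FPKM + 1) values of the cells of each label, 1 named gene and 1 label at a time. It was also run on the summed FPKM and the number of genes at 1 FPKM of the cells, which picked out no cell. About 1 in 20 such groups is picked out by chance, and a gene at 0 in all cells but 1 is picked out by construction. It picked out 31 of 192 groups, each given here in log2(FPKM + 1) for the cell that stood apart. The 192 include groups whose cells were all equal, which could not be picked out. Testis-labelled cell T1 stood apart in Dcx at 0.026, Gata4 at 0.067 and Hmgcs1 at 8.52. Testis-labelled cell T2 stood apart in Hes1 at 5.21, Mki67 at 0.19, Pcna at 1.51 and Syt1 at 0.057. Testis-labelled cell T3 stood apart in Col1a1 at 0.061 and Gfap at 2.93. Testis-labelled cell T4 stood apart in Aqp4 at 5.13, Col3a1 at 0.13, Ddx4 at 4.22, Ptn at 9.44 and Tnrc6a at 3.62. Neuron-labelled cell N1 stood apart in Ddit3 at 6.37 and Syp at 6.06. Neuron-labelled cell N3 stood apart in Clu at 0 and Olfm2 at 0. Neuron-labelled cell N4 stood apart in Rbfox3 at 0.56 and Wt1 at 0.090. Neuron-labelled cell N5 stood apart in Olig1 at 1.67 and S100a4 at 0.95. Neuron-labelled cell N6 stood apart in Aqp4 at 6.19, Isg15 at 0.26 and Zcchc12 at 0. Neuron-labelled cell N7 stood apart in Mt1 at 0.90 and Sox2 at 0.16. Neuron-labelled cell N8 stood apart in Bgn at 0.10, Crb2 at 0.23, Igfbp3 at 0.096 and Otx2 at 3.27. T2 was thus low in the cell cycle genes Mki67 and Pcna, as in the whole lists. No cause was tested.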

How the results depend on the processing

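The counts of genes past a difference of 2 moved with the handling of low values and of cells, and the counts of genes without overlap moved with the cells left out. With a pseudocount of 0.1 the counts past 2 were 879 higher in the testis-labelled cells and 634 higher in the neuron-labelled cells, with log2 of the mean FPKM 386 and 609, and with the median over cells 589 and 324, beside 251 and 135; r with RM2-1 testis was 0.854 with the median over cells. Without each cell in turn, 244 to 425 genes were higher in the testis-labelled cells (425 without T2) and 139 to 231 in the neuron-labelled cells (231 without T1). The genes without overlap, 17 and 5 with all cells, numbered 22 to 71 (71 without T2) and 8 to 21 (21 without T3), since fewer cells overlap less often. The shared genes numbered 42 to 46, and r between both labels ran from 0.929 to 0.941, with RM2-1 testis from 0.866 to 0.879 and with RM1-1 EB from 0.883 to 0.896. Among the named genes, no difference past 2 changed sign under these alternatives. The other genes past 2 were not checked for sign. The alternative that set shared genes against all 9 other single-cell samples was added after seeing the data and left 38. No paired analysis was possible because the result comes from no test and the columns carry no replicate numbers. Without read counts, a value of 0 cannot be set apart from a low level.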
